A study of Mus musculus with 8 samples.

Results

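miR-155 (mmu-miR-155 on the array) was followed across all 8 arrays of the series, as 1 of the 567 mouse miRNAs that the array measures. It was taken by its array name, and its deposited summary, its 2 probes, its place among all miRNAs and its share of their summed signal were compared between groups. The CpG group was 4 samples of bone-marrow-derived dendritic cells from C57BL/6 mice given ODN1826, a CpG oligonucleotide of class B, at 10 µM overnight, and the untreated group was 4 samples kept overnight without it. The control is called medium alone in one part of the labels and PBS in another, and no sample had a control oligonucleotide. Both groups had been grown with murine GM-CSF at 40 ng/ml, and cells not adherent at day 9 were used. The replicates are numbered without a statement that each had its own mouse or culture. Every p-value therefore rests on the spread among these samples alone, and part of it may be technical. Total RNA was labelled with Cy3 and read in 1 colour on 1 slide at 1 scan time.

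miR-155 is cut from the transcript of the non-coding gene Mir155hg, also called BIC, which is switched on in dendritic cells, macrophages and lymphocytes by Toll-like receptor ligands and other inflammatory signals. CpG oligonucleotides are sensed by the Toll-like receptor TLR9. The mature miRNA is known to lower the phosphatase SHIP1 and the cytokine signalling inhibitor SOCS1, both of which restrain myeloid activation, and mice without it have dendritic cells that present antigen poorly. A miRNA finds its targets mainly through its seed, bases 2 to 8 counted from its 5′ end.

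The sequences below are those of RefSeq on GRCm38.p6, shown so that the seed of miR-155 can be set beside those of other miRNAs described here. Seeds are in capitals, and array names without an arm were read as the guide arm of current naming. All mature miRNAs lie as RefSeq places them: miR-155-5p at chr16:84714143-84714165 on the plus strand, miR-146a-5p at chr11:43374435-43374456 and miR-222-3p at chrX:19146901-19146923 on the minus strand, and miR-101b-3p at chr19:29135338-29135356 on the plus strand.
miR-155-5p: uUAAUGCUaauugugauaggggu
miR-146a-5p: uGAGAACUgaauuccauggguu
miR-222-3p: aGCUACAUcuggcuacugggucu
miR-101b-3p: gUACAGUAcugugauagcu
Among 1674 different mature mouse sequences of that table, 0 others had the seed of miR-155, while miR-146a shared its seed with miR-146b and miR-222 with miR-221 and miR-1928. The hairpin spans 65 bases at chr16:84714140-84714204 on the plus strand, inside the span of Mir155hg at 84713023 to 84715245. Its capitals mark the 5p and the 3p arm.
Mir155 hairpin: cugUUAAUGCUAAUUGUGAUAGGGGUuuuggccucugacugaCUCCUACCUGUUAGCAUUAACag
The array named no 3p arm of miR-155, so that the values below are of the arm named miR-155 alone. Its probes, A_54_P2336 and A_54_P2337, target 17 and 18 bases that the array's annotation places on mm9 at chr16:84714394-84714410 and chr16:84714393-84714410.

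Before scaling between arrays, the CpG arrays were brighter. Their 75th percentile over miRNAs lay at 157 to 280.5 intensity units, against 101 to 144 on the untreated arrays. Of mouse miRNAs, 213 to 236 were detected per CpG array and 191 to 203 per untreated array. Of the markers, the 3 myeloid ones (miR-223, miR-142-3p and miR-142-5p) were detected on all arrays and together held 3.98% to 4.49% of the summed signal on CpG arrays and 4.59% to 5.33% on untreated ones. The 3 erythroid, 2 endothelial and 4 stromal markers on the array were not detected on any array. Of the 4 lymphoid markers, in cells that also make miR-155, miR-150 was not detected on any array, and the other 3 together held 1.57% to 1.77% on CpG arrays and 1.87% to 1.92% on untreated arrays. Of the 5 epithelial markers, miR-200b was detected on all arrays, and miR-200a and miR-429 on none. miR-200c and miR-141 were each detected on 4 of 4 CpG arrays and 1 of 4 untreated arrays. The epithelial markers together held at most 0.0258% on a CpG array and 0.0291% on an untreated one. The part of array brightness and of these markers in the results on miR-155 was not tested beyond the scalings given below.

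miR-155 was much brighter in CpG-treated than in untreated dendritic cells on every array. Its deposited total gene signal, the sum over its probes without scaling between arrays, was 3365, 6683, 5279 and 7495 intensity units in CpG replicates 1 to 4, against 863, 677, 1427 and 569 in untreated replicates 1 to 4. The dimmest CpG array thus read above the brightest untreated array. CpG arrays averaged 5706 ± 1809 units and untreated arrays 884 ± 381.5 units (SD, n = 4 each), a ratio of 6.46 (exact permutation, two-sided, p = 0.0286, the smallest that 4 against 4 arrays allow). The scanner software's own error on each value was between 8.41% and 8.91%. In these bulk samples, more cells that make miR-155 and more miR-155 per cell cannot be told apart.

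After each array was divided by its 75th percentile, the log2 signal of miR-155, where 0 is that percentile, was 3.93, 4.28, 4.38 and 4.29 in CpG replicates 1 to 4, against 2.59, 2.01, 2.81 and 1.78 in untreated replicates 1 to 4. The groups did not overlap, and the untreated arrays differed more among themselves, with an SD of 0.48, than the CpG arrays did, with an SD of 0.20. The group means of 4.22 with CpG and 2.30 without differed by 1.92 (SE 0.24, limma adjusted p = 0.00096 over all tested miRNAs), which is 3.79-fold. Against this background 14.2% of the tested miRNAs passed the threshold of 0.05 in either direction and 7.55% were higher with CpG. For 7.08% every CpG array lay above every untreated one. Those calls were 16 higher and 14 lower, and the split shifted with the scaling, to 88 and 0 without any, 93 and 0 in the authors' unscaled table, 67 and 2 on the hur control features, 17 and 5 by median-of-ratios and 16 and 7 with the percentile over all miRNAs. It was 13 and 7 by cyclic loess and 7 and 12 with normexp and quantile. The median tested miRNA was at -0.19 after scaling and at 0.60 without it, and miR-155 lay 2.11 above that median with scaling and 2.12 above it without. Only miR-877 had a larger difference, at 2.02 (SE 0.21), and it is named here after its values were seen. Taken by replicate number, the CpG sample was above the untreated one by 1.34, 2.27, 1.57 and 2.51 on the log2 scale for replicates 1 to 4. Their shared sign follows from the lack of overlap between the groups and is no further result. Within slide row 1 the difference was 1.92 (SE 0.38, limma adjusted p = 0.39, 2 arrays against 2), and within slide row 2 it was 1.92 (SE 0.32, limma adjusted p = 2.2e-07). The 2 estimates came out alike, but at these SEs they cannot decide whether the size was equal in both rows. These p-values differ with the spread that limma borrows from other miRNAs, at 3.43 prior degrees of freedom in row 1 and, in row 2, without limit, so that 1 spread served all miRNAs there, and neither p is a measure of the 4 arrays alone.

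**Figure D1:**
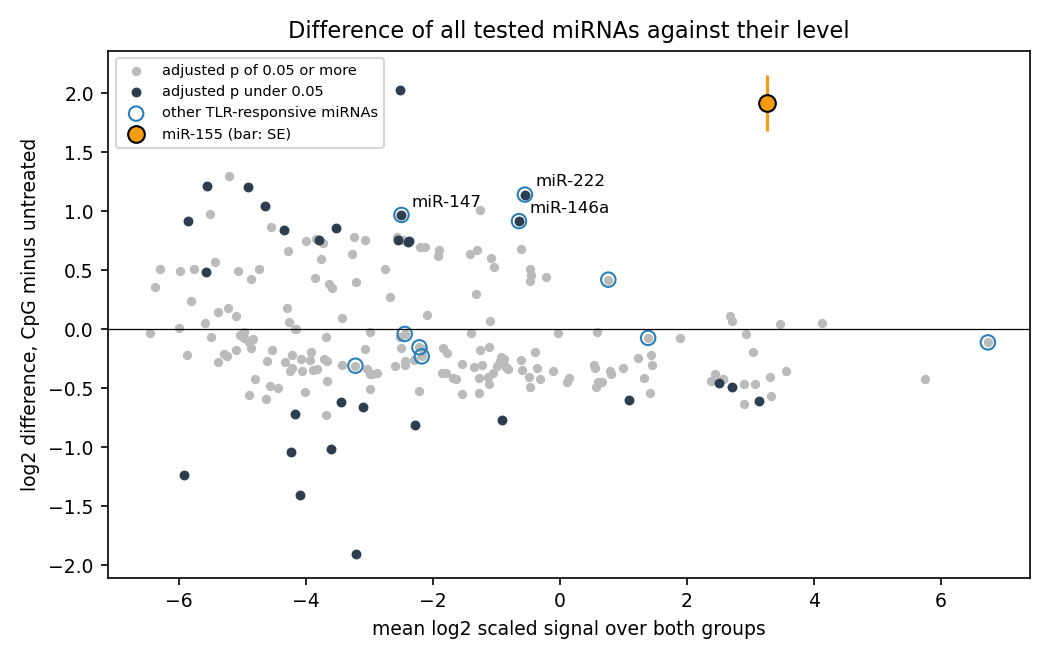
Each point is 1 tested miRNA, with its mean log2 scaled signal over both groups across and its log2 difference, CpG minus untreated, upward. miR-155 (orange, bar SE) stands at 1.92 with a high level, while miR-222, miR-147 and miR-146a are the other TLR-responsive miRNAs (blue rings) past the threshold.

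Each of the 2 probes was printed on 10 spots of every array. Of the 160 spot readings, all 160 were well above background, 0 were saturated, and the highest was 10096 units. Outlier flags removed 11 readings, 9 on CpG arrays and 2 on untreated arrays. Spots of a probe on the same array varied with a coefficient of variation between 1.08% and 10.8%, with a median of 4.39%, over readings without the flag. This is the spread of spots within an array and not that between samples.

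The brighter probe, A_54_P2337, had mean processed signals of 4079, 8520, 6440 and 9685 units in CpG replicates 1 to 4, against 1015, 839, 1682 and 680.35 in untreated replicates 1 to 4. The dimmer probe, A_54_P2336, read 688, 1291, 1070.0 and 1294 in CpG replicates 1 to 4, against 203, 164, 338 and 149 in untreated replicates 1 to 4. On both probes all CpG arrays exceeded all untreated ones before scaling, and untreated replicate 3 was the brightest of its group. After scaling, A_54_P2337 was higher with CpG by 1.98 on the log2 scale, or 3.95-fold (SE 0.24, limma adjusted p = 0.00096). A_54_P2336 was higher by 1.58, or 2.99-fold (SE 0.23, limma adjusted p = 0.0032). Both are adjusted over 385 probes of all miRNAs, of which 7.27% were higher with CpG. The probes share their target miRNA and are not replicates of the condition.

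**Figure D2:**
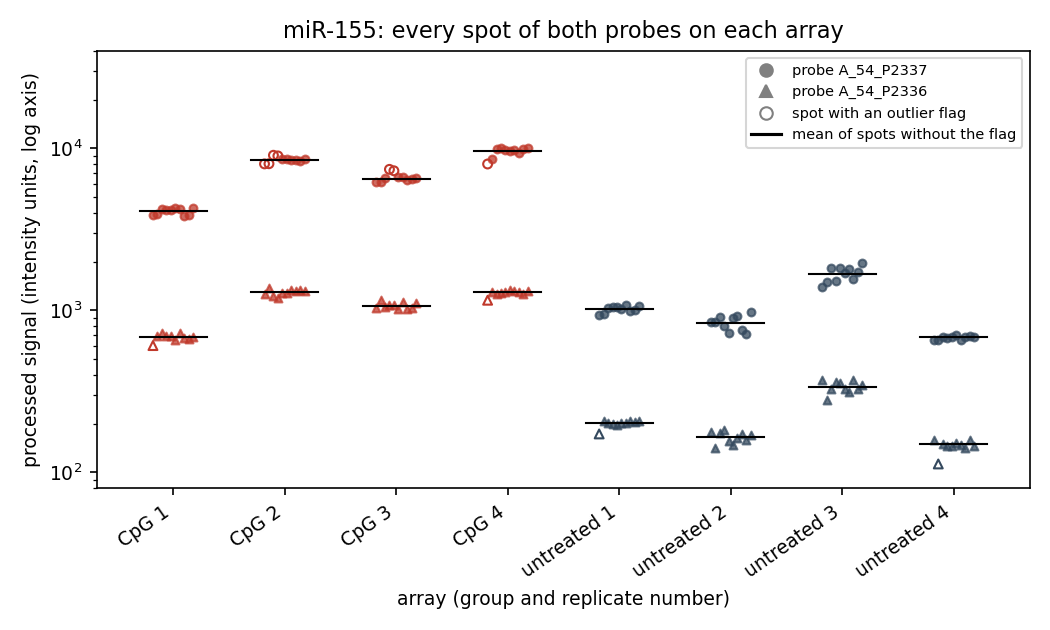
Processed signal of each spot (log axis, intensity units) for both miR-155 probes on the 8 arrays, with CpG in red, untreated in dark blue, open symbols for spots with an outlier flag and a black line for the mean of the others. For either probe every CpG mean lies above every untreated mean, the closest for A_54_P2337 being 4079 on CpG replicate 1 and 1682 on untreated replicate 3.

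The share and the rank of miR-155 need no scaling between arrays, and both separated the groups. The share of miR-155 in the summed signal of detected mouse miRNAs was 3.62%, 5.85%, 5.28% and 4.85% in CpG replicates 1 to 4, against 1.23%, 0.965%, 1.74% and 0.796% in untreated replicates 1 to 4. CpG arrays averaged 4.90% ± 0.95 and untreated arrays 1.18% ± 0.41 (SD, n = 4 each; p = 0.0286 by two-sided exact permutation), and the summed signal of all other miRNAs was itself 1.51 times as high on the CpG arrays. By signal, miR-155 ranked 4, 3, 3 and 3 in CpG replicates 1 to 4, against 20, 22, 14 and 22 in untreated replicates 1 to 4 (exact permutation, two-sided, p = 0.0286). The rank is one of brightness, since probes differ in how strongly they bind and miRNAs differ in their number of probes, and is not an order of copy number.

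On all 4 untreated arrays 13 miRNAs were brighter than miR-155, and 10 of these were dimmer than it on all 4 CpG arrays. On the CpG arrays miR-21 and miR-720 were brighter on all 4, and miR-22 was brighter on replicate 1 alone. These 3 were also brighter on all 4 untreated arrays, and no miRNA dimmer than miR-155 on every untreated array exceeded it on any CpG array. They are named here after their values were seen.

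**Figure D3:**
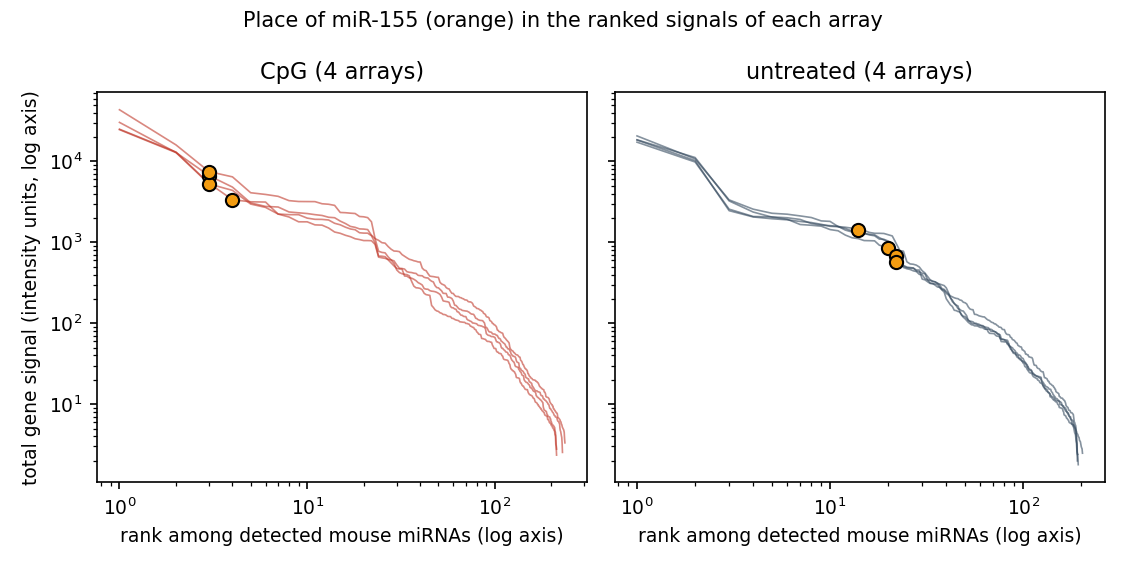
Total gene signal (log axis, intensity units) of the detected mouse miRNAs of each array against their rank (log axis), CpG on the left and untreated on the right, 1 line per array, with miR-155 as an orange point. On the CpG arrays miR-155 stands at ranks 3 to 4, and on the untreated arrays at ranks 14 to 22.

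The ratio of miR-155 to another miRNA on the same array shows whether the 2 changed unequally. Scaling cancels in it only where the other miRNA lies above the floor of -6.55. At the floor, as for miR-455 on untreated replicates 2 and 4, the ratio restates the scaled value of miR-155. Some of the miRNAs counted here lay at the floor on 1 or more arrays. The ratio was higher with CpG against 209 of the other 211 tested miRNAs and lower against 0 (limma, adjusted over the 211 ratios), with a median change of 2.12 on the log2 scale. In that fit all ratios share the values of miR-155, and all came out with 1 common spread. Tested one by one by exact permutation, an alternative chosen after seeing the data, 197 ratios passed (exact permutation adjusted p = 0.0306). These are the 197 ratios in which every CpG array lay above every untreated one. Only such a separation can pass with 4 against 4 arrays, and all 197 share the values of miR-155, so they are not separate results. For comparison with the limma count, over all ordered pairs of tested miRNAs 8.61% of ratios were higher with CpG by limma, the median miRNA was higher against 2 others, and miR-877 was higher against 210. The ratio of miR-155 to miR-877 differed by -0.10 (95% confidence interval -0.96 to 0.75, limma adjusted p = 0.75), an interval that holds differences of either sign. Against miR-455 the change was 0.63 (95% confidence interval -0.51 to 1.76, limma adjusted p = 0.0575), and miR-455 itself was detected on 1 of 4 untreated arrays.

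Among the other miRNAs known to respond to Toll-like receptor ligands, a list chosen with earlier results of these data known, 10 of 11 could be tested. Past the threshold, 3 were higher and 0 lower with CpG, beside 7.55% of all tested miRNAs higher, while miR-187 was not detected often enough. The median difference of these 10 was -0.06, against -0.19 for all tested miRNAs. miR-146a, which dampens Toll-like receptor signalling by lowering the adaptors IRAK1 and TRAF6, had log2 signals of -0.64, 0.19, -0.02 and -0.26 in CpG replicates 1 to 4, against -1.45, -0.84, -0.72 and -1.40 in untreated replicates 1 to 4. It rose by 0.92 (SE 0.23, limma adjusted p = 0.0355), with no overlap. miR-147, induced in macrophages by Toll-like receptor ligands, was at -2.18, -2.14, -2.01 and -1.69 in CpG replicates 1 to 4, against -2.70, -3.40, -2.62 and -3.18 in untreated replicates 1 to 4. It rose by 0.97 (SE 0.21, limma adjusted p = 0.0227), also with no overlap. miR-222, known to target cell cycle inhibitors, rose by 1.14 (SE 0.20, limma adjusted p = 0.0111). The other 7 did not pass, with limma adjusted p of 0.27 or more. Of these, 1 was higher and 6 were lower with CpG, with differences between -0.31 and 0.42. Only miR-222 kept its call without any 1 array, and those of miR-147 and miR-146a were lost without CpG replicate 3 (limma adjusted p = 0.0669 and 0.0994) or untreated replicate 2 (0.0731 for both), and that of miR-146a also without CpG replicate 2 (0.102), CpG replicate 4 (0.0542), untreated replicate 1 (0.0789) or untreated replicate 4 (0.0747).

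In the limma fit of ratios, miR-155 changed by more than each of these 3. Its ratio to miR-146a changed by 1.00 (95% confidence interval 0.33 to 1.68, limma adjusted p = 0.0024), that to miR-147 by 0.95 (0.58 to 1.32, adjusted p = 0.0040) and that to miR-222 by 0.78 (0.18 to 1.38, adjusted p = 0.0183). By exact permutation the ratios to miR-146a and miR-147 passed (adjusted p = 0.0306 for both) and that to miR-222 did not (adjusted p = 0.0588), because CpG replicate 1, at 3.55, fell below untreated replicate 3, at 3.71.

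**Figure D4:**
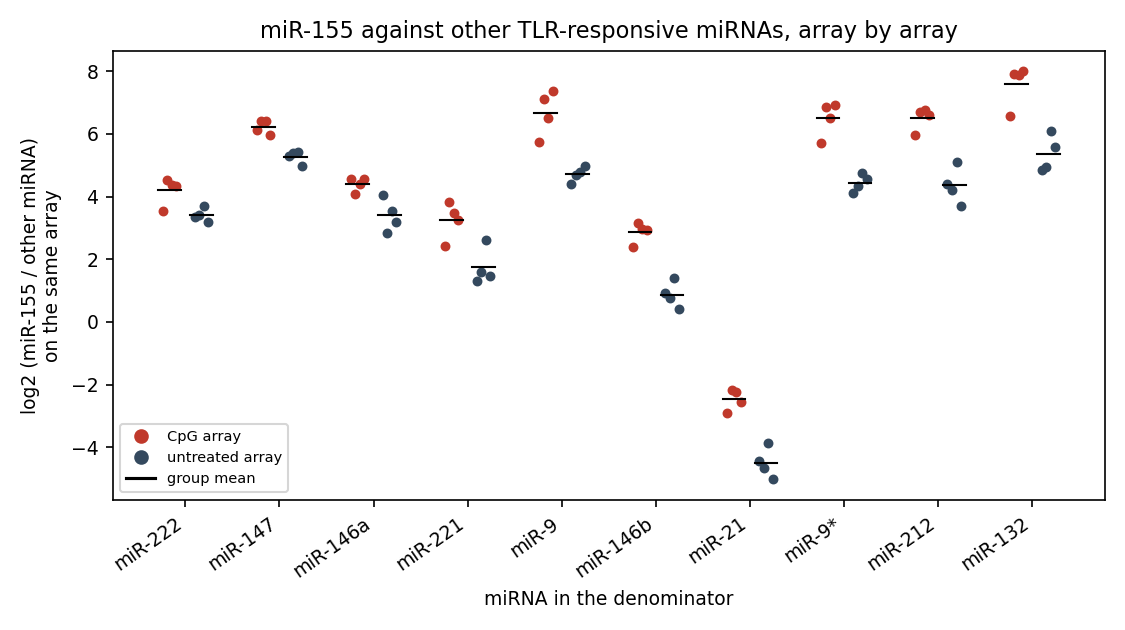
log2 ratio of miR-155 to each of 10 other TLR-responsive miRNAs on the same array (upward), CpG arrays in red to the left of untreated arrays in dark blue for each miRNA, with black lines for group means. The CpG mean is higher for all 10, with the smallest change against miR-222 (0.78), and single arrays overlap between groups for miR-222 and miR-221.

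The 5 miRNAs whose scaled signal followed that of miR-155 most closely over the 8 arrays were miR-101b (Pearson r = 0.987), miR-147 (0.955), miR-467e (0.946), miR-222 (0.927) and miR-22* (0.918). These are descriptions over 8 arrays that share a slide and a scaling factor, and much of each follows from the difference between groups. With each group's mean removed, r was 0.966 for miR-101b, 0.812 for miR-147 and 0.702 for miR-467e. It was 0.481 for miR-222 and 0.471 for miR-22*. miR-101b was at -2.18, -1.99, -1.89 and -1.94 in CpG replicates 1 to 4, against -2.61, -2.80, -2.48 and -3.09 in untreated replicates 1 to 4, so that its lowest CpG array was replicate 1 and its highest untreated array replicate 3, as for miR-155. miR-101b and miR-22* rose by 0.75 (SE 0.16) and 0.74 (SE 0.16), both with limma adjusted p = 0.0227, and both calls were lost without untreated replicate 2 (0.0731 for both) or CpG replicate 3 (0.0718 for both). The call of miR-101b was also lost without CpG replicate 2 (limma adjusted p = 0.0548) and that of miR-22* without untreated replicate 4 (0.0548). miR-467e, detected on every CpG array, was not above background on any untreated array, with mean log2 signals of -5.33 with CpG and -5.82 without. It entered the fit through the CpG arrays alone, so that no test or fold is given for it. Both correlations given for miR-467e rest in part on untreated values not above background.

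**Figure D5:**
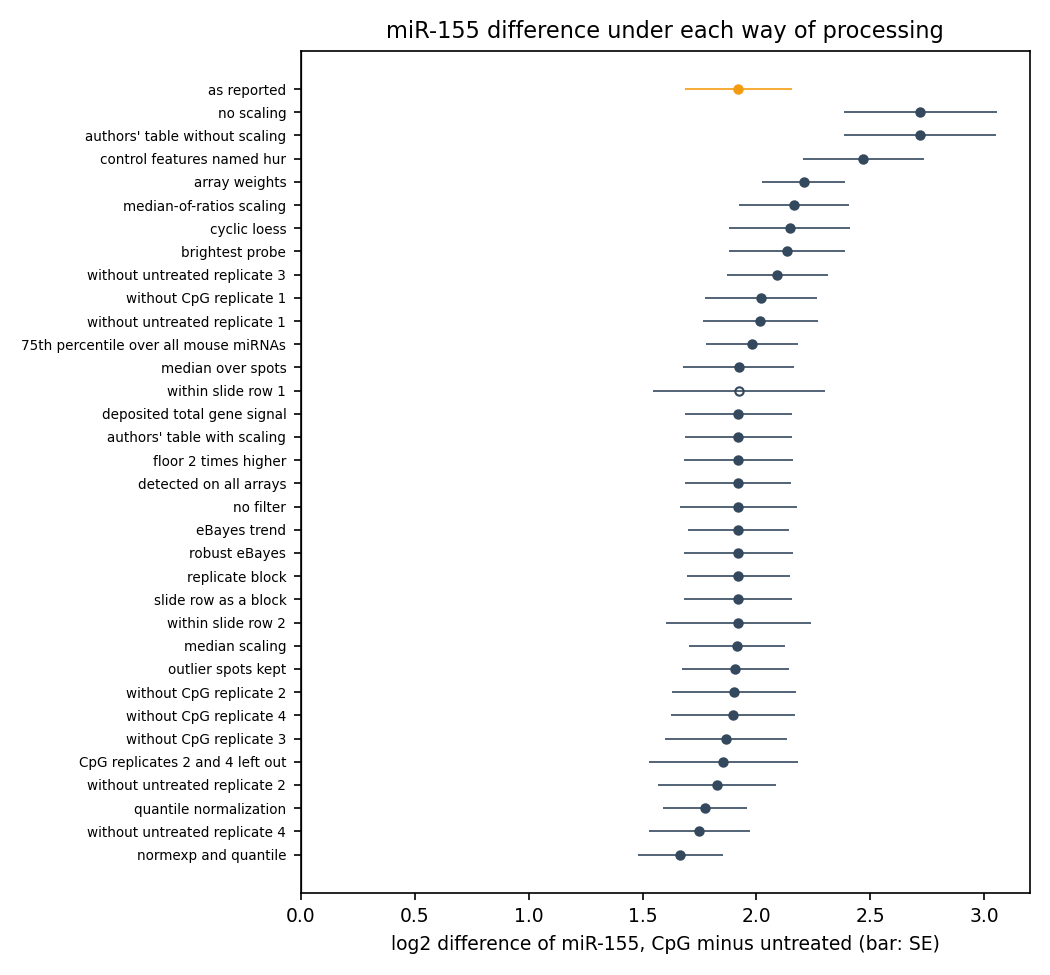
log2 difference of miR-155, CpG minus untreated (across, bar SE), as reported (orange) and under 33 other ways of processing or choosing arrays. All values lie between 1.67 and 2.72, and the open point, within slide row 1, is the 1 that did not pass the threshold.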

How the data were processed

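The members and lists were chosen with earlier results of these data known. Per the file headers, the authors deposited scanner output made with Agilent Feature Extraction 9.5.3.1. For each spot it holds a processed intensity, from which background and spatial trend had been removed. A second file sums these per miRNA into a total gene signal and flags it as detected or not. The authors' deposited table of 260 miRNAs held the same intensities: all 2080 values matched within 0.1%. Per the submitters' processing notes, limma was used by them, with no version stated.

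Spots without outlier flags were averaged per probe and probes per miRNA, divided by the array's 75th percentile over 177 miRNAs detected on all arrays, floored at a log2 of -6.55 and put on the log2 scale. The 212 miRNAs detected on at least 3 arrays of a group were tested with limma 3.58.1 in R 4.3.3 (lmFit, eBayes, two-sided, Benjamini-Hochberg). Shares and ranks used exact permutation of 70 arrangements. The fits were tested on simulated data. Confidence intervals come from the linear fit without moderation. Named are miR-155, the TLR-responsive miRNAs that passed, and the 5 most correlated with miR-155. Outside that rule, and after their values were seen, miR-877, miR-455, miR-21, miR-720, miR-22 and miR-712 are named as exceptions or small counts. Figures were made in matplotlib 3.10.9 under Python 3.11.15. The number of arrays limits the precision.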

Additional observations from a re-analysis of the deposited data

Results flagged for a closer look

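By a rule on the gap over the range, a single array stood apart from its group in 2 of the 42 sets of 4 values examined. About 1 set in 20 would show this by chance if sets were independent and without ties. These sets share arrays, and ranks can tie, so that rate is only a rough guide. miR-155 ranked 4 on CpG replicate 1 and 3 on each of the other 3 CpG arrays, a set that meets the rule through its ties alone. The number of mouse miRNAs detected was 203 on untreated replicate 2, while its 3 fellow arrays averaged 192.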

How the results depend on the processing

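The difference of miR-155 kept its direction in all 33 alternatives and passed in 32, at 1.67 to 2.72, and at 1.75 to 2.09 when 1 array was left out. The exception was slide row 1 alone (1.92). The closest passes were with no filter (limma adjusted p = 0.0457) and with CpG replicates 2 and 4 left out (0.0498). Several alternatives returned the same 1.92, and leaving out arrays cannot reverse groups that do not overlap. The 33 thus hold fewer separate checks of direction. The share and rank differences of miR-155, 3.72 percentage points and -16.25 places, were 3.27 and -16 with CpG replicates 2 and 4 left out (exact permutation p = 0.0667), and 3.72 and -16.25 with the replicate block (exact p = 0.125). Each of these p-values is the smallest that its design allows. With 1 array left out they were at 3.40 to 4.15 and -18.1 to -15.4. Deviations from the group mean correlated between samples of the same replicate number at 0.277, -0.259, 0.25 and 0.0962, best with the own number in 1 of 4. With 4 arrays per group, these values cannot decide whether the replicate numbers pair the samples. With the replicate block miR-155 stayed at 1.92 (limma adjusted p = 0.0078) and 38 miRNAs passed. The ratio count was 564 of 566 with no filter. The 30 miRNAs past the threshold became 88 without scaling, 93 in the authors' table without scaling, 69 on the hur features, 18 with the median, 19 with quantile and 19 with normexp and quantile, 48 with a floor 2 times higher, 3 with no filter, 16 on the brightest probe, 122 with array weights and 4 with CpG replicates 2 and 4 left out. They ranged from 5, without untreated replicate 2 and without CpG replicate 3, to 68 without CpG replicate 1, and were 11 without CpG replicate 2, 12 without untreated replicate 1 and 17 without untreated replicate 4. The 3 other TLR-responsive miRNAs became 6 without scaling and on the hur features, 7 in the authors' table without scaling, 0 with no filter and with CpG replicates 2 and 4 left out, and 1 to 3 with 1 array left out, the 1 without untreated replicate 2 and without CpG replicate 3. The causes were not tested. Under 31 alternatives, miR-222 kept its direction and call in 29 and lost the call in 2, and miR-147 kept it in 27 and lost it in 4. miR-101b and miR-22* each kept it in 26 and lost it in 5, and miR-146a kept it in 22 and lost it in 9. None of these values changed sign. Calls of miR-467e are not counted, since no test is given for it. Signal over background limits dim miRNAs such as miR-467e.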

Other observations

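The 2 probes of miR-155 did not change alike. The signal of A_54_P2337 over that of A_54_P2336 was 5.93, 6.6, 6.02 and 7.49 in CpG replicates 1 to 4, against 5.004, 5.11, 4.98 and 4.57 in untreated replicates 1 to 4. Every CpG array lay above every untreated one, with averages of 6.51 ± 0.72 on CpG arrays and 4.92 ± 0.24 on untreated arrays (SD, n = 4 each; p = 0.0286 by two-sided exact permutation). This comparison was added after the values were seen. Across 117 miRNAs with at least 2 probes well above background on all arrays, the log2 ratio of the brightest to the dimmest probe differed for 2 (limma with Benjamini-Hochberg adjustment over the 117). They were miR-155, at 0.40 (SE 0.073, adjusted p = 0.0082), and miR-712, at 0.69 (SE 0.11, adjusted p = 0.0056), with a median of -0.02 over all 117. On mean minus median background signals the ratio of the miR-155 probes averaged 6.48 with CpG and 4.82 without, and on the median over all spots 6.596 with CpG and 4.99 without. No reading of either probe was saturated. The cause was not tested.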
